A study of Mus musculus with 10 samples.

Results

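The TAM receptors are the tyrosine kinases encoded by *Tyro3*, *Axl* and *Mertk*, and their ligands are encoded by *Gas6* and *Pros1*. These 5 genes were taken by gene name from the 54532 genes of the deposited expression table, 3 receptors and 2 ligands, and all 5 passed the filter on low values described below. They were followed in the neural retina of BALB/c mice aged 2 months, an inbred albino strain whose eyes lack the pigment that screens the retina from light. RNA-seq was done on 10 neural retinas. All mice were first kept in the dark for 12 h. The 5 normal light retinas (NL, numbered 1, 4, 5, 7 and 8) then had 200 lux and the 5 light damage retinas (LD, numbered 1, 4, 6, 7 and 8) had 15000 lux, both for 1 day. The comparison asks which of these genes differ after strong light, at a time the study chose because it precedes overt retinal degeneration. A whole neural retina mixes many cell types, so fewer cells of a type and less RNA per cell cannot be told apart in any value below.

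GAS6 and protein S, the product of *Pros1*, are secreted proteins that carry vitamin K-dependent carboxylated glutamates at one end, which bind phosphatidylserine on dying cells and on shed photoreceptor outer segment tips. The other end binds the extracellular domain of a TAM receptor, so that a ligand bridges the dying cell and the phagocyte. MERTK is best known in the eye for the daily uptake of outer segment tips by the pigment epithelium, and its loss in rodents leads to photoreceptor degeneration. AXL and MERTK also act in macrophages and microglia, where TAM signalling joins the type I interferon receptor to induce SOCS proteins that dampen cytokine responses. GAS6 binds all 3 receptors, whereas protein S is a ligand of TYRO3 and MERTK.

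Expression is given in FPKM, the fragments assigned to a gene per kilobase of its exons and scaled to the library, so that levels of different genes can be compared. The depth was 21343389 to 26832535 reads assigned to genes in NL and 18965090 to 23378090 in LD. The test was limma, run on log2(FPKM + 0.1) over all 24508 genes that reached 0.1 FPKM in 5 or more retinas. A gene was called changed at a Benjamini-Hochberg adjusted p under 0.01 together with a fold change above 2, the thresholds of the study. Fold changes come from this scale, so changes of weakly expressed genes are understated. Of all genes tested, 6.51% were called, 4.13% higher and 2.37% lower in LD, and the median log2 difference was -0.012. NL-5 and NL-7, LD-1 and LD-7, and LD-4 and LD-6 resembled each other more closely than other retinas of their group did, with a chi-square per gene of 2.65 to 3.65 against 12.2 to 43.4, but differed by more than sampling noise. All 10 were kept as separate samples, and every p-value rests on that. LD-4 and LD-6 also stood apart in cell type markers, and results that rest on them are given without them.

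*Axl*, *Pros1* and *Gas6* changed with LD at an adjusted p well under 0.01, and they did so in opposite directions. *Axl* rose 5.77-fold (95% interval 5.01 to 6.64) and *Pros1* rose 3.11-fold (2.62 to 3.70). *Gas6*, by far the most abundant of the 5, fell to 0.674 times its NL level (0.608 to 0.748), less than the 2-fold needed for a call. *Mertk* and *Tyro3* had fold changes of 1.59 and 1.42, with LD values that were widely spread. Thus 2 of the 5 genes were called, both higher, where 4.13% of all genes tested were called higher. The LD and NL retinas did not overlap in 4 of the 5 genes, as in 22.4% of all genes tested.

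**Figure D1:**
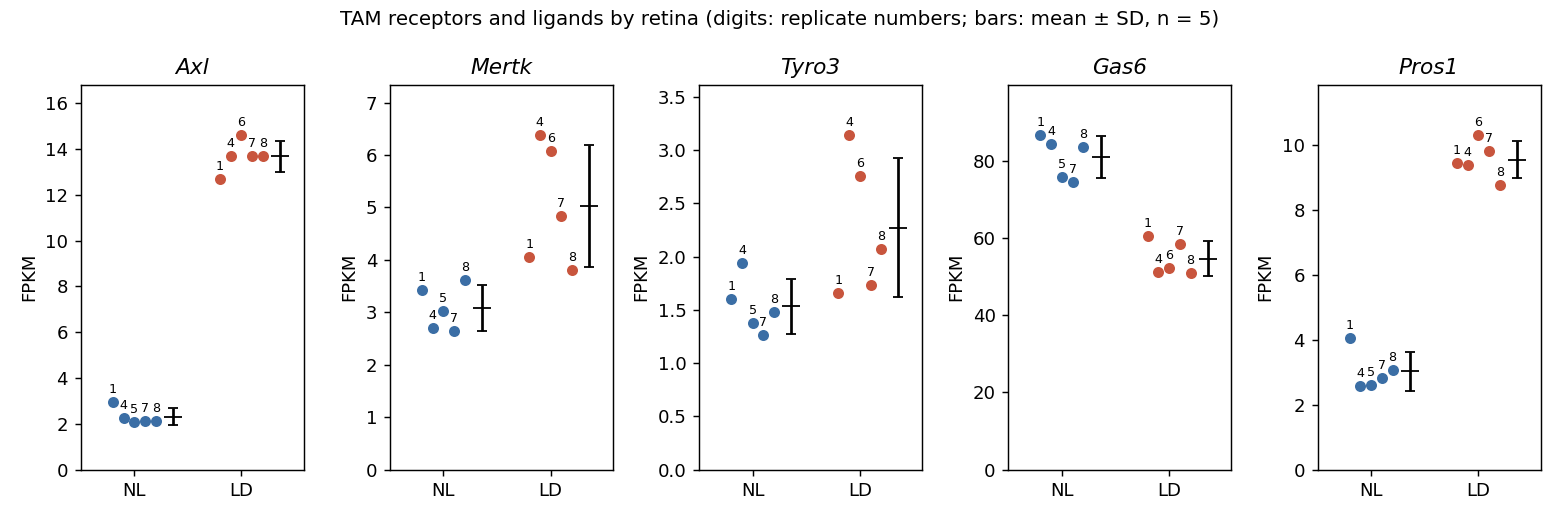
FPKM of each receptor and ligand gene in the NL (blue) and LD (red) retinas, 1 point per retina with its replicate number, on linear axes that start at 0 and differ between panels; the black bars are mean ± SD (n = 5). *Axl* and *Pros1* separate widely, *Gas6* separates in the other direction, and for *Mertk* and *Tyro3* the retinas LD-4 and LD-6 sit above the other LD retinas.

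*Axl* and *Pros1* are the genes that were called, and the 250 bases upstream of their start sites are shown for that reason. The sequences are those of RefSeq on GRCm38.p6, 5′ to 3′ on the strand of the gene, at chr7:25788734-25788983 on the minus strand for *Axl* and chr16:62854057-62854306 on the plus strand for *Pros1*. Capitals mark matches to GGGCGG, the SP box of many promoters, on either strand, and in *Pros1* also 1 match to TTCNNNGAA, the palindrome bound by STAT dimers and called GAS.
Axl promoter: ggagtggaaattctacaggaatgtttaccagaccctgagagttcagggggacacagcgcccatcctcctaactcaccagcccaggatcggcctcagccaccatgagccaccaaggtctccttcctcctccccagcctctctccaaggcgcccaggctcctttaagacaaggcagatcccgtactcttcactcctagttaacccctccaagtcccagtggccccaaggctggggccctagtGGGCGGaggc
Pros1 promoter: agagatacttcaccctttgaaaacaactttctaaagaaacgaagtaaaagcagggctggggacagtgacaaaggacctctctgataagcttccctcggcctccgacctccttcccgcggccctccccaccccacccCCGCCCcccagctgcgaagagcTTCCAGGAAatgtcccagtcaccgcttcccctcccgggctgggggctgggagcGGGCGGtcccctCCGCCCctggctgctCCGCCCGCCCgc
The *Axl* window holds 1 SP box, which begins 10 bases before the start site. The *Pros1* window holds 5 SP boxes, the last 2 of them overlapping at 12 and 8 bases before the start, and the GAS match TTCCAGGAA begins 92 bases before it. SP boxes were present in all 5 genes, with 3 in *Mertk*, 3 in *Tyro3* and 4 in *Gas6*, and in 32.7% of 32851 RefSeq promoters of this length. The GAS letters occurred in 7.02% of these promoters. No match was found in any of the 5 windows to GAAANNGAA, the core of the interferon-stimulated response element, which 7.13% of promoters held, to the AP-1 site TGANTCA (6.75%) or to the E-box CACGTG (6.02%). GC content was 60.0% in *Axl*, 63.6% in *Mertk*, 73.2% in *Tyro3*, 54.8% in *Gas6* and 64.4% in *Pros1*, against a median of 52.4%. A match describes letters only, and binding was not measured.

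*Axl* (ENSMUSG00000002602) lies on chromosome 7 from 25757273 to 25788705 on the minus strand of GRCm38, a span of 31.4 kb with up to 20 exons and an exon length of 5033 bases. It encodes the receptor that GAS6 binds with the highest affinity. Its level was 2.95, 2.27, 2.08, 2.12 and 2.12 FPKM in NL-1, NL-4, NL-5, NL-7 and NL-8. In LD-1, LD-4, LD-6, LD-7 and LD-8 it was 12.7, 13.7, 14.6, 13.7 and 13.7 FPKM. The lowest LD retina was at 4.33 times the highest NL retina. The coefficient of variation was 4.78% in LD and 15.8% in NL, where NL-1 (2.95 FPKM) stood apart from the others (2.08 to 2.27 FPKM). The means were 2.31 ± 0.364 and 13.7 ± 0.654 FPKM (SD, n = 5 each), resting on 213 to 317 reads in NL and 1396 to 1643 in LD. The log2 fold change was 2.53 (SE 0.09, adjusted p = 4.19e-08 in limma), higher than that of 99.1% of the genes tested. *Axl* moved from above 31.7% of the 15464 protein-coding genes tested in NL to above 74.5% in LD. The exact two-sided permutation test gave p = 0.00794, the smallest that 5 against 5 retinas allow.

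*Mertk* (ENSMUSG00000014361), the phagocytic receptor of the pigment epithelium and of macrophages, spans 104 kb of chromosome 2 from 128698956 to 128802894 on the plus strand, with up to 19 exons and an exon length of 4336 bases. It overlaps *Gm23172* on the same strand and *Gm14011* on the opposite strand, and the strand setting of the counting is not given in the sources used here. The NL values were 3.43, 2.71, 3.02, 2.64 and 3.62 FPKM in NL-1, NL-4, NL-5, NL-7 and NL-8. The LD values were 4.05, 6.38, 6.07, 4.83 and 3.80 FPKM in LD-1, LD-4, LD-6, LD-7 and LD-8. The groups did not overlap, but the lowest LD retina, LD-8, was only 1.05 times the highest NL retina, NL-8. The means were 3.09 ± 0.432 and 5.03 ± 1.16 FPKM (SD, n = 5 each), from 243 to 589 reads per retina. The log2 fold change was 0.67 (SE 0.16, 95% interval 0.32 to 1.01) with an adjusted p of 0.0091 in limma, which passes 0.01 without reaching 2-fold. An adjusted p under 0.01 at any fold was found in 9.3% of genes in the higher and 7.74% in the lower direction. Across the 25 alternatives the *Mertk* adjusted p ran from 0.00356 to 0.123 and was under 0.01 in 8. Those 8 include the change of threshold alone, which keeps the main fit and its adjusted p of 0.0091. Without LD-4 and LD-6 the log2 fold change was 0.45 with an adjusted p of 0.0419.

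*Tyro3* (ENSMUSG00000027298), the receptor known mainly from neurons, lies on chromosome 2 from 119797733 to 119818104 on the plus strand, a span of 20.4 kb with up to 20 exons and an exon length of 6198 bases. It was at 1.60, 1.94, 1.38, 1.26 and 1.48 FPKM in NL-1, NL-4, NL-5, NL-7 and NL-8. The LD retinas had 1.66, 3.14, 2.76, 1.73 and 2.07 FPKM in LD-1, LD-4, LD-6, LD-7 and LD-8. The groups overlapped, since LD-1 and LD-7 lay below NL-4. The log2 fold change of 0.51 (SE 0.19, 95% interval 0.09 to 0.93) had an adjusted p of 0.0706 in limma and an unadjusted exact permutation p of 0.0397. Without LD-4 and LD-6 it was 0.24 with an adjusted p of 0.336. *Tyro3* was the lowest of the 5 genes in NL and in LD, from 166 to 394 reads per retina.

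*Gas6* (ENSMUSG00000031451) spans 29.1 kb of chromosome 8 from 13465374 to 13494490 on the minus strand, with 15 exons and an exon length of 2548 bases. Its position overlaps that of *Tmem255b* on the opposite strand, and the sources used here do not say whether counting used strand. The NL retinas had 86.6, 84.2, 75.7, 74.5 and 83.6 FPKM in the order NL-1, NL-4, NL-5, NL-7 and NL-8. The LD retinas had 60.6, 51.1, 52.1, 58.4 and 50.8 FPKM in the order LD-1, LD-4, LD-6, LD-7 and LD-8. Every LD retina was below every NL retina, and the lowest NL value was 1.23 times the highest LD value. The mean of 80.9 ± 5.48 FPKM in NL and 54.6 ± 4.55 FPKM in LD (SD, n = 5 each) rested on 2640 to 5498 reads per retina. The log2 fold change was -0.57 (SE 0.07, 95% interval -0.72 to -0.42, adjusted p = 0.000137 in limma), and the exact permutation p was 0.00794. *Gas6* was above 97.9% of protein-coding genes in NL and still above 96.1% in LD.

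*Pros1* (ENSMUSG00000022912), which encodes protein S, also a plasma cofactor of activated protein C, lies on chromosome 16 from 62854307 to 62929346 on the plus strand, with up to 15 exons and an exon length of 4088 bases. The NL values were 4.05, 2.59, 2.61, 2.83 and 3.06 FPKM in NL-1, NL-4, NL-5, NL-7 and NL-8. Those of LD-1, LD-4, LD-6, LD-7 and LD-8 were 9.43, 9.39, 10.3, 9.81 and 8.77 FPKM. The lowest LD retina was at 2.17 times the highest NL retina, and as for *Axl* the highest NL retina was NL-1. The means were 3.03 ± 0.601 and 9.53 ± 0.554 FPKM (SD, n = 5 each), resting on 217 to 354 reads in NL and 778 to 940 in LD. The log2 fold change was 1.64 (SE 0.11, adjusted p = 3.18e-06 in limma), higher than that of 97.5% of genes tested, and the exact permutation p was 0.00794.

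**Figure D2:**
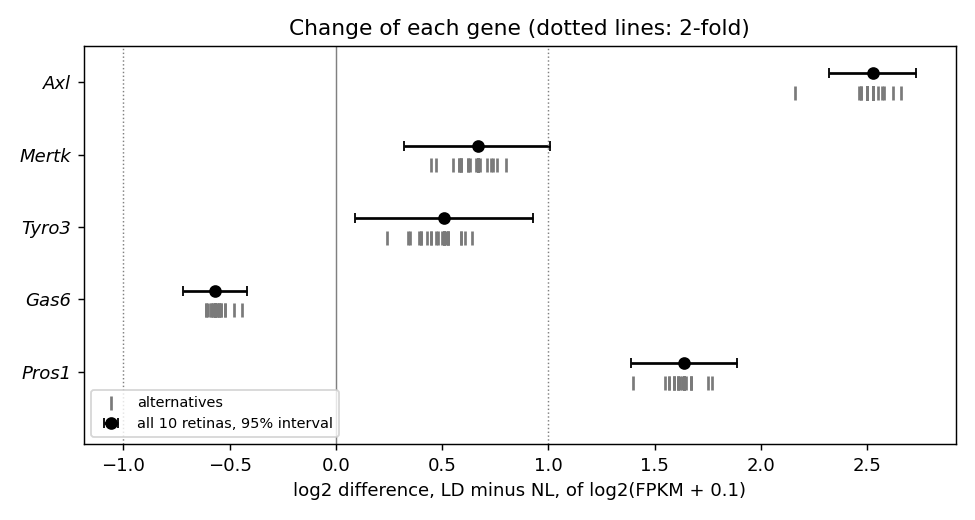
Difference between LD and NL in log2(FPKM + 0.1) for each gene, with its 95% interval from limma (black) and the same difference under each alternative (grey ticks); dotted lines mark 2-fold. *Axl* (2.16 to 2.66) and *Pros1* (1.40 to 1.77) stay beyond 2-fold under the 25 alternatives, *Gas6* stays between -0.61 and -0.44, and *Mertk* and *Tyro3* stay below 2-fold.

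The order of the genes also differed between the groups. In NL, *Gas6* was above the rest in every retina, and *Tyro3* was below the rest. Between them *Mertk* exceeded *Pros1* in 3 of 5 retinas, and their ranges overlapped. The ranges of *Pros1* and *Axl* overlapped too, although *Pros1* was the higher in 5 of 5 NL retinas. In LD the order was *Gas6*, *Axl*, *Pros1*, *Mertk* and *Tyro3*, with no overlap between neighbours.

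The summed FPKM of the 3 receptors was 6.92 ± 0.738 in NL and 21.0 ± 2.20 in LD (SD, n = 5 each). *Axl* made up 33.3% ± 2.89 of that sum in NL and 65.6% ± 4.74 in LD, while *Mertk* went from 44.6% ± 4.11 to 23.7% ± 3.20 and *Tyro3* from 22.2% ± 3.33 to 10.7% ± 2.04. *Axl* was thus the second of the receptors in every NL retina and the first in every LD retina. The summed FPKM of the ligands was 84.0 ± 5.86 in NL and 64.1 ± 4.71 in LD. Within it *Pros1* had a share of 3.60% ± 0.548 in NL and 14.9% ± 1.14 in LD, and *Gas6* held the rest. The ligand sum was 12.2 ± 0.532 times the receptor sum in NL and 3.09 ± 0.497 times in LD. These sums describe transcripts, and receptor or ligand protein was not analysed here.

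**Figure D3:**
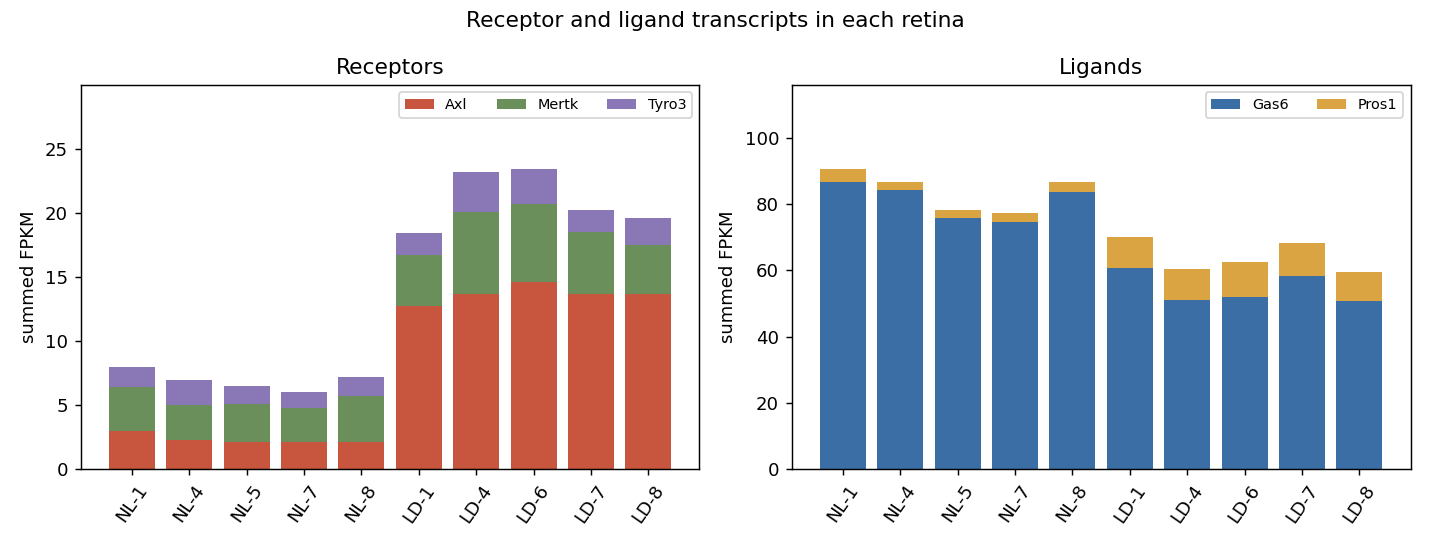
Stacked FPKM of the receptor genes (left) and of the ligand genes (right) in each of the 10 retinas, on linear axes from 0. The receptor stack is 6.02 to 7.97 FPKM high in NL and 18.5 to 23.4 in LD, mostly through *Axl*, while the ligand stack is 77.3 to 90.7 FPKM high in NL and 59.5 to 70.0 in LD, with a smaller *Gas6* and a larger *Pros1* part.

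A ratio between the FPKM of 2 genes in the same retina does not depend on the scaling of its library, and log2 ratios were taken after adding 0.1 to both. *Axl* over *Mertk* was 0.585 to 0.859 in NL and 2.14 to 3.60 in LD, a mean log2 difference of 1.86. *Axl* over *Tyro3* was 1.17 to 1.84 in NL and 4.36 to 7.91 in LD, a log2 difference of 2.02. *Gas6* over *Pros1* was 21.4 to 32.5 in NL and 5.08 to 6.42 in LD, a log2 difference of -2.21. In each of these 3 ratios all LD retinas lay on one side of all NL retinas, with an exact permutation p of 0.00794 and 0.0106 after adjustment over the 4 ratios tested. *Mertk* over *Tyro3* was 1.40 to 2.45 in NL and 1.83 to 2.79 in LD, a log2 difference of 0.16 with an exact permutation p of 0.421, so a difference in this ratio was not detected.

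The markers of cell types that a neural retina holds, or can carry over at dissection, were measured beside these genes. The 10 rod markers were present at a summed 10000 to 12200 FPKM in NL and at 1570 to 3060 FPKM in LD, and all 10 were called lower. Of the 7 cone markers 4 were called lower. The 10 microglial markers summed to 20.4 to 26.1 FPKM in NL and 26.5 to 60.2 FPKM in LD, with 5 called higher. Of the 8 markers of monocytes and perivascular macrophages, *Ccr2*, *Ly6c2*, *Mrc1*, *Cd163*, *Ms4a7* and *F13a1* stayed under the filter. *Ly6c2* had 0 reads in NL and at most 17 in LD. Of the 2 that were tested, *Lyz2* was called higher. The other, *Lyve1*, was not called, with a log2 fold change of 0.01 (adjusted p = 0.958 in limma). The 10 Müller glia markers summed to 1130 to 1360 FPKM in NL and 629 to 896 in LD, but the list's median log2 fold change was 0.03. *Glul*, called lower, went from a mean of 711 to 165 FPKM, *Vim* was called higher, and the other 8 were not called. Of the 4 astrocyte markers *Aldh1l1* was called higher (sums 8.75 to 13.4 and 14.1 to 24.6 FPKM). No marker of endothelium (10 tested, sums 47.1 to 57.1 and 62.3 to 101 FPKM), pericytes and smooth muscle (7, 8.35 to 13.1 and 8.33 to 16.4 FPKM) or ganglion cells (7, 238 to 281 and 231 to 266 FPKM) was called. *Kdr* was the largest part of the endothelial sum, with means of 30.0 FPKM in NL and 49.8 FPKM in LD. The median log2 fold change of the endothelial list was 0.20. *Axl* and *Pros1* moved together with the fall of rod markers and the higher microglial sums between the groups, and the part of these in their rise was not tested. Within LD, the microglial sum was 60.2, 39.8, 40.2, 50.5 and 26.5 FPKM in LD-1, LD-4, LD-6, LD-7 and LD-8. *Axl* was 12.7, 13.7, 14.6, 13.7 and 13.7 FPKM in the same retinas, and the relation between them was not tested.

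LD-4 and LD-6, the LD retinas highest in *Mertk* and *Tyro3*, also had the lowest rod sums (1570 and 1670 FPKM against 2510 to 3060 in the other LD retinas). Their Müller glia sums (872 and 896 against 629 to 682 FPKM) and endothelial sums (100 and 101 against 62.3 to 66.1 FPKM) were the highest of LD. So were their sums for monocytes and perivascular macrophages (19.8 and 19.4 against 14.5 to 15.5 FPKM) and for pericytes and smooth muscle (15.7 and 16.4 against 8.33 to 10.1 FPKM). The same held for astrocytes (24.6 and 22.7 against 14.1 to 17.2 FPKM) and ganglion cells (266 and 264 against 231 to 248 FPKM). LD-4 and LD-6 were also the LD retinas with *Xist*, the transcript of the inactive X chromosome, above 1 FPKM, as were NL-4 and NL-8 in NL. In the retinas without *Xist*, the log2 fold change was 2.46 for *Axl* (adjusted p = 0.000192), 1.55 for *Pros1* (0.0018) and -0.48 for *Gas6* (0.0162), and it was 0.47 for *Mertk* (0.0656) and 0.34 for *Tyro3* (0.196), all from limma. The part of these marker differences in the *Mertk* and *Tyro3* values was not tested. The 10 pigment epithelium markers, from the layer behind the neural retina where *Mertk* acts in phagocytosis, were present in every retina at a summed 52.0 to 159 FPKM in NL and 62.3 to 121 FPKM in LD, and none was called. *Ttr* was the largest part of the pigment epithelium sum, with means of 57.6 FPKM in NL and 68.3 FPKM in LD. *Rpe65* had means of 12.9 and 7.36 FPKM. The highest sum of NL was in NL-8, which also had the highest *Mertk* of NL, and the highest of LD was in LD-8, which had the lowest *Mertk* of LD.

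**Figure D4:**
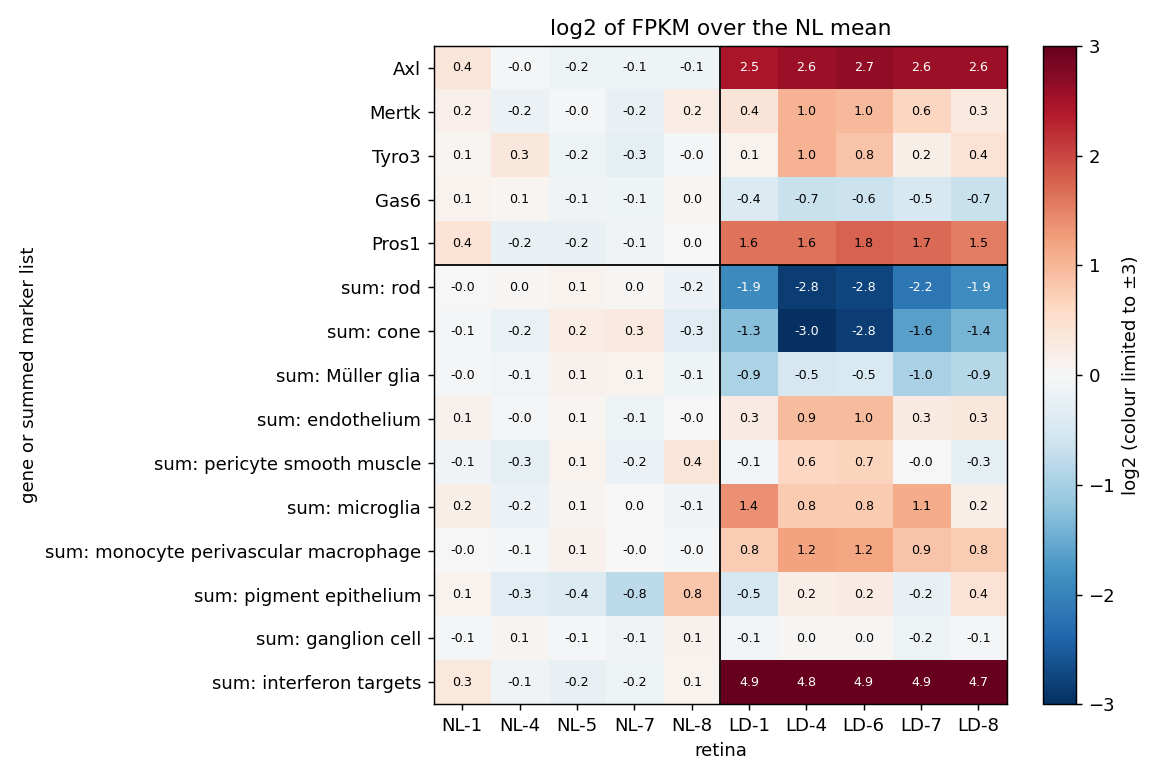
Each cell gives log2 of a retina's FPKM over the NL mean, for the 5 genes (above the line) and for summed marker lists and interferon targets (below it), with colour limited to 3 in either direction. *Axl* and *Pros1* are even across the LD retinas, while *Mertk* and *Tyro3* are highest in LD-4 and LD-6, where the rod and cone sums are lowest and the endothelial sum is highest.

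Around the receptors and ligands, 83 genes of 8 functional lists were followed, of which 78 passed the filter. Of these, 25 were called higher and 1 lower, so that 33.3% were called, beside 6.51% of all genes tested. The median log2 fold change was 0.32, beside -0.012 over all genes tested. The lists were chosen with results of these data known. Without the list of interferon targets, 16 of 68 (23.5%) were called. No call fell in the lists for ligand carboxylation, receptor shedding, phosphatidylserine exposure or *Mertk* regulators.

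None of the 3 genes of ligand carboxylation was called. *Ggcx*, the vitamin K-dependent carboxylase of GAS6 and protein S, was at 7.40 ± 1.16 FPKM in NL and 7.25 ± 1.32 in LD (SD, n = 5 each), with an adjusted p of 0.889 in limma. *Vkorc1l1*, which recycles vitamin K, had a log2 fold change of -0.19 (adjusted p = 0.0566 in limma). None of the 4 genes of receptor shedding was called. *Adam17*, a protease that releases the MERTK ectodomain, had a log2 fold change of 0.05 (adjusted p = 0.596 in limma), and *Rhbdf2*, which encodes a partner of that protease, had 0.70 (adjusted p = 0.00472), higher at less than 2-fold.

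Of the 6 genes tested that set phosphatidylserine exposure, the signal the ligands bind, none was called (median log2 fold change -0.02). *Atp11a*, a flippase that keeps the lipid inside, fell by less than 2-fold, from 39.2 ± 2.08 to 27.7 ± 2.97 FPKM (SD, n = 5 each, log2 fold change -0.50, adjusted p = 0.000486 in limma). *Xkr8*, the scramblase cleaved in apoptosis, had a log2 fold change of 0.13 (adjusted p = 0.479), and *Xkr9* had at most 2 reads in any retina.

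Among 21 tested genes for the recognition of dying cells, some of them described as encoding MERTK ligands, 5 were called higher and 1 lower. The median log2 fold change was 0.35. The rise was in *Lgals3* (log2 fold change 3.55, SE 0.42), *Tgm2* (2.64, SE 0.16), *C1qc* (2.27, SE 0.24) and *C1qb* (2.15, SE 0.29), with *C1qa* (1.86, SE 0.27) as the fifth. *Lgals3* encodes galectin-3, which has been described as a MERTK ligand, and its level spread from 14.9 to 71.3 FPKM in LD against 2.20 to 3.67 in NL. C1q is the complement protein that opsonises dying cells and is made largely by microglia. *Tulp1*, a rod-enriched gene whose product has also been described as a MERTK ligand, was called lower (-1.29, SE 0.19), and *C1qa* and *Tulp1* were named after their values were seen. *Mfge8*, another bridging protein to phosphatidylserine, which uses integrins in place of TAM receptors, had a log2 fold change of -0.10 (adjusted p = 0.396 in limma). *Timd4* had no reads and *Havcr1* at most 2 reads in any retina.

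Of 19 genes of engulfment signalling downstream of such receptors, 4 were called higher and none lower (median 0.26). These were *Vav1* (2.14), *Plcg2* (1.31), *Dock1* (1.19) and *Rhog* (1.03), in log2 fold change, with adjusted p-values of 1.65e-05, 0.000939, 0.000123 and 0.000489 in limma. *Vav1* and *Plcg2* are expressed mainly in blood-derived cells and microglia, and *Vav1* was at 0.220 ± 0.0647 FPKM in NL and 1.30 ± 0.203 FPKM in LD (SD, n = 5 each). *Dock1* and *Rhog* encode parts of the module that activates RAC at the phagocytic cup.

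The 6 genes of *Mertk* regulators, mostly nuclear receptors that sense sterols and fatty acids, held no call (median log2 fold change -0.08). *Rxra*, the partner of these receptors, fell by less than 2-fold (log2 fold change -0.59, adjusted p = 0.000179 in limma), and *Nr1h3*, which encodes LXR alpha, had -0.26 (adjusted p = 0.36).

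Of 9 tested genes of the interferon receptor and its feedback, where TAM signalling acts, 6 were called higher. *Socs3* went from 2.12 ± 0.304 to 51.0 ± 19.0 FPKM and *Socs1* from 0.214 ± 0.0550 to 2.62 ± 0.600 FPKM (SD, n = 5 each). *Socs3* and *Socs1* encode the suppressors of cytokine signalling, and their log2 fold changes were 4.46 and 3.10. *Irf9*, which encodes part of the complex that carries the interferon signal to the nucleus, had a log2 fold change of 2.89. *Jak1* and *Tyk2*, the kinases of the receptor, and *Ifnar1* were not called. *Twist1* and *Twist2*, which encode repressors of cytokine genes linked to AXL signalling, had at most 2 reads in any retina. All 10 interferon targets were called higher, with a median log2 fold change of 4.58 and a summed level of at most 14.4 FPKM in NL and of 304 to 356 FPKM in LD. The largest log2 fold changes among them were those of *Ifit1* (6.04), *Bst2* (5.24), *Usp18* (5.08) and *Ifit3* (4.66).

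**Figure D5:**
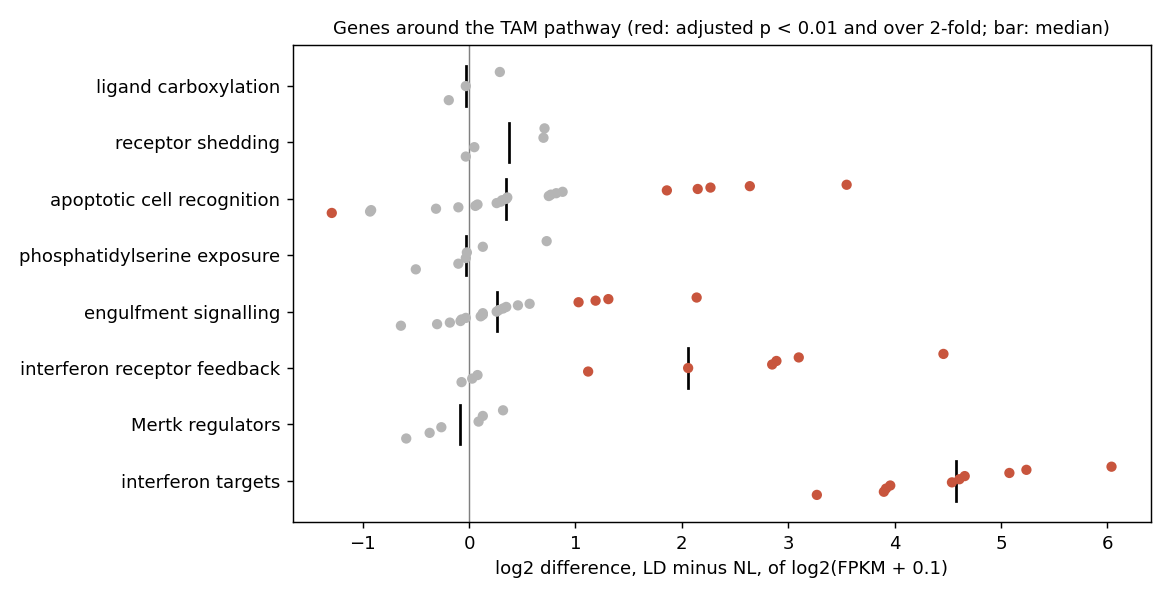
Difference between LD and NL in log2(FPKM + 0.1) of each tested gene in the 8 lists around the receptors, red where called and grey where not, with a bar at the median of the list. Red points gather in the interferon lists (medians 2.06 and 4.58) and are absent from carboxylation, shedding, phosphatidylserine exposure and *Mertk* regulators.

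The genes most like *Axl* over the 10 retinas were sought among the 12688 protein-coding genes whose mean reached 1 FPKM in NL or LD, by the root mean square difference of log2 values after each gene was centred on its NL mean. They were *Ifit2* (0.147), *Csf1* (0.149), *Cd14* (0.154), *Ifi27* (0.157) and *Clec2d* (0.179), where 0 would be an identical profile. For *Pros1* they were *Slc47a1* (0.109), *Fosl1* (0.144), *Spata6* (0.152), *Ucp2* (0.164) and *Sbno2* (0.172). *Axl* and *Pros1* differed from each other by 0.636 on this measure. The genes listed were picked as the closest, so nothing is drawn from their smaller values. The measure also reflects the size of the log2 fold change, which was 2.53 for *Axl* and 1.64 for *Pros1*.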

How the data were processed

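RNA-seq was done on 10 neural retinas, 5 per group, with groups and replicate numbers taken from the sample labels. The paper states TRIzol extraction, paired-end Illumina HiSeq sequencing and normalization by a company, whereas the labels name a NovaSeq. The submitters' processing notes list Bowtie2 2.0.6, TopHat2 2.0.9 and the build mm8. The counting program, strand setting and test are not given in the sources used here. The positions in the table are on GRCm38: 54409 of 54532 identifiers are in GENCODE M21, 53499 of them at the same position.

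The authors deposited FPKM values per gene and retina. FPKM times exon length was a whole multiple of 1 step for 100% of values (tolerance 0.01), which gave the reads behind each value. The library sizes carry a factor per retina of 0.951 to 0.968 in NL and 1.04 to 1.07 in LD. FPKM is relative to the library and gives no absolute amount of RNA.

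Here log2(FPKM + 0.1) was fitted with limma 3.58.1 (R 4.3.3), using the trended prior and no block, and p-values were adjusted over 24508 genes by Benjamini-Hochberg. Exact two-sided permutation tests used scipy 1.17.1, with numpy 2.4.6, pandas 2.3.3 and matplotlib 3.10.9 under Python 3.11.15. The paper's legend calls the retinas biological replicates. On simulated LD against NL data for 24981 genes, an adjusted p under 0.01 was counted with no fold minimum. It was reached with the right sign by 80 of 100 genes changed 4-fold and 24 of 100 changed 2-fold. It was also reached by 2 unchanged genes. The simulation gave every gene the same fixed dispersion (spread beyond sampling noise) in both groups, and this was not estimated from these retinas. In that simulation most 2-fold changes were missed. Far fewer genes were changed in it than differed between the retinas, where 9.3% were higher and 7.74% lower at that adjusted p. The share of 2-fold changes missed in the real data was not measured.

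The 5 genes, the lists and the motifs were chosen with earlier results of these data known. Named are the 5 genes, from each list up to 4 called genes with the largest change or up to 2 others where none was called, and the 5 most alike genes of each called gene. Genes of the functional lists named outside this rule are *C1qa*, *Tulp1*, *Mfge8*, *Timd4*, *Havcr1*, *Xkr9*, *Ifnar1*, *Jak1*, *Tyk2*, *Twist1* and *Twist2*. A gene that this rule names is not reported here. Alternatives changed the pseudocount, filter, scaling, trend, test, threshold, block and retinas, and 2 subsets of retinas were added after seeing the data. Promoters came from RefSeq on GRCm38.p6, where all 5 genes matched.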

Additional observations from a re-analysis of the deposited data

Results flagged for a closer look

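In each group of 5 retinas, the genes, ratios and summed marker lists were checked for a retina far from the other 4, by Dixon's test at its 95% critical value. Of 40 groups checked, 3 were flagged, where chance alone flags about 1 in 20, or 2 here. *Axl* in NL-1 was 2.95 FPKM, while the other NL retinas had 2.08 to 2.27 FPKM. The log2 ratio of *Mertk* over *Tyro3* in NL-4 was 0.48, against 1.07 to 1.29 in the other NL retinas. The summed markers of monocytes and perivascular macrophages in NL-5 were 9.41 FPKM, while the other NL retinas had 8.15 to 8.50 FPKM.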

How the results depend on the processing

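*Axl* and *Pros1* were called under all 25 alternatives, and the direction of each of the 5 genes and 4 ratios was the same under every alternative run. At an adjusted p under 0.05 in limma with no fold minimum, *Mertk* (0.67) and *Gas6* (-0.57) were also called. So were 6818 of the 24508 genes tested and 48 of the 78 genes tested in the lists. A pseudocount of 1 left 816 genes called, and the retinas without *Xist* left 927. When single retinas were left out, one after the other, log2 fold changes were 2.50 to 2.62 for *Axl*, 0.58 to 0.76 for *Mertk* (adjusted p 0.00516 to 0.0251), 0.39 to 0.61 for *Tyro3*, -0.61 to -0.54 for *Gas6* and 1.59 to 1.75 for *Pros1*, and 1379 to 1603 genes of the table and 25 to 28 of the lists were called. With the closest pairs averaged, the log2 differences of *Axl* over *Mertk* (1.92), *Axl* over *Tyro3* (2.05) and *Gas6* over *Pros1* (-2.20) had an exact permutation p of 0.0571, the smallest that these 4 against 3 samples allow. Without the library factor the median of all genes shifted by 0.121 on the log2 scale, from -0.012 to 0.109, and *Gas6* was at -0.44.

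The replicate numbers were not shown to pair the retinas: over the 4 shared numbers, deviations from the group means correlated between -0.0893 and 0.0656. With the replicate block on these 8 retinas, 808 genes were called, against 1182 without it. In that block *Axl* was at 2.47 (adjusted p = 0.000725 in limma), *Pros1* at 1.57 (0.00213), *Gas6* at -0.58 (0.0101), *Mertk* at 0.59 (0.123) and *Tyro3* at 0.40 (0.136). The lowest read numbers were those of *Tyro3* in NL, 166 to 256 per retina.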
